A study of Mus musculus with 2 samples.

Results

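The genes described here are 33 genes of glycolysis, lactate handling and the response to low oxygen, taken from a fixed list of symbols and all found among the 29417 genes of the deposited table. They comprise 2 glucose transporters, 16 enzymes of the glycolytic pathway, 3 regulators of glycolytic or pyruvate flux, 4 lactate genes, 2 oxygen-sensing transcription factors and 6 genes induced by hypoxia. The cells were the stromal vascular fraction, the cells other than adipocytes that remain after enzymatic digestion of fat, from epididymal white adipose tissue of wild-type male C57BL/6J mice. The mice had eaten a high-fat diet for 8 or 16 weeks or a standard diet for 16 weeks. Suspensions were marked with hashtag antibodies at 2.5 µg/ml and pooled, and 20000 cells entered 1 BD Rhapsody run amplified by TAS-Seq, a whole-transcriptome method for bead-captured single cells. Which hashtag marks which diet or animal, and how many animals were used, is not stated in the labels, so diets were not compared and the 9 hashtag populations stand as unassigned samples.

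Glycolysis splits glucose into pyruvate in the cytosol and yields ATP without oxygen. Pyruvate then enters mitochondria for oxidation, or is reduced to lactate and exported. When oxygen is scarce, the transcription factor Hif1a escapes degradation, pairs with Arnt and raises transcription of many glycolytic genes, and activated macrophages are known to use the same factor when they shift towards glycolysis.

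Hypoxia-inducible factors are known to bind DNA at a core that can read ACGTG, so upstream sequences that hold this core are shown for some of the genes. Sequences of the 250 bases before a transcription start came from RefSeq (build GRCm38.p6), which held 45 such windows for 31 of the 33 genes. ACGTG was searched on both strands, where it also reads CACGT, and the palindrome CACGTG counts once on each strand. It was present in 21 of the 45 windows (46.7%), against 16.6% of all 32851 windows in the table. For the other form of the core, GCGTG, these shares were 53.3% and 28.2%. The windows were not matched for base composition, and some windows of the same gene overlap, so the shares are a description only. The sequences below are the windows with at least 2 matches among genes that differed at least 2-fold between macrophage-like and fibroblast-like cells; capitals mark ACGTG or CACGT, and each runs 5′ to 3′ on the gene's strand.
Ldha (chr7:46845554-46845803, plus strand): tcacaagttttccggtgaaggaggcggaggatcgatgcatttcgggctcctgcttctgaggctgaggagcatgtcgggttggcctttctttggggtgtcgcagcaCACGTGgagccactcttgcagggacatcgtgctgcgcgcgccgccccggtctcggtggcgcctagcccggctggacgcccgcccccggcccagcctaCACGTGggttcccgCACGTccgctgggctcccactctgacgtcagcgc
Pgk1 (chrX:106186850-106187099, plus strand): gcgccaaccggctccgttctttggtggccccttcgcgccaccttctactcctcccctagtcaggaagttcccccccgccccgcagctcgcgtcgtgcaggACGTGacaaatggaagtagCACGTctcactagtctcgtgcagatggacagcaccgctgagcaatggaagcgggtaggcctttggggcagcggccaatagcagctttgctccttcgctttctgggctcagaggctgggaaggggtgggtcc
Hk2 (chr6:82774455-82774704, minus strand): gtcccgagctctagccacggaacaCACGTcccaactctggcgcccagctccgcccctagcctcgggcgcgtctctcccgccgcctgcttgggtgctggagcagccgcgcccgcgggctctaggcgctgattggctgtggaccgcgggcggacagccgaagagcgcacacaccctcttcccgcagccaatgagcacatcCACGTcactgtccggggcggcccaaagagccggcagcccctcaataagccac
Pfkfb3 (chr2:11502091-11502340, minus strand): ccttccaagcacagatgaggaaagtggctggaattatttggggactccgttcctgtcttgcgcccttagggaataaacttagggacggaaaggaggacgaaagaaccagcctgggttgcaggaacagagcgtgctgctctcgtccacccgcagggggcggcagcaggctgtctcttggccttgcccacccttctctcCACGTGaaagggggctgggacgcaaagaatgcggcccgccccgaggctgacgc
The Ldha window held 5 matches over both strands, and those of Pgk1, Hk2 and Pfkfb3 held 2 each, which in Pfkfb3 were the strands of 1 palindrome. Ldha, Pgk1 and Pfkfb3 were higher in macrophage-like cells, whereas Hk2 was lower, so genes with matches stood on either side of the comparison below. The windows shown were picked by their matches. Hk3 and Hilpda, with the largest ratios among the genes compared below, had at most 1 match in a window and are not shown. A match describes the letters of the window and is not evidence of binding.

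After filtering, 10286 cells remained, with a median of 36709 reads per cell (5169 to 736281), and 810 to 1428 of them belonged to each hashtag population. All 12028 barcodes of the transcriptome table with a hashtag or doublet call occurred in the hashtag table, and none was used more than once. Cells were grouped without the 33 genes and named from marker genes. Macrophage-like cells, which held C1qa, Adgre1 and Csf1r, numbered 3092 (30.1%, 95% exact binomial interval 29.2 to 31.0). Fibroblast-like cells, which held Pdgfra and Dcn, numbered 2546 (24.8%, 23.9 to 25.6). Another 9 classes of 65 to 1021 cells were named, 1 class of under 50 cells was not used, and 5 clusters with 2009 cells (19.5%) stayed without a name. The median depth was 77453.5 reads in macrophage-like cells and 54290 reads in fibroblast-like cells, and lower in most other classes, at 14803 reads in T cell-like cells. Levels below are summed reads of a class as counts per 1000000 reads (CPM), with exact Poisson 95% intervals in parentheses. With 1 pooled library nothing was replicated, and the hashtag populations, which have no group label, were not used as replicates in a test, so no p-values are given; the intervals cover counting error only and are too narrow, because several reads can come from 1 molecule.

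Glycolytic genes stood higher in macrophage-like than in fibroblast-like cells along most of the pathway, while hypoxia genes outside glycolysis were divided. A gene was compared when it reached 20 CPM in at least 1 of both classes, and was called when the ratio of CPM plus 1 was at least 2-fold, which 24 of the 33 genes could be. Of these, 13 were higher in macrophage-like cells (54.2%), against 17.4% of all 7758 genes compared. Another 4 were lower (16.7%), against 22.1% of all genes compared, and 7 lay within 2-fold. The median log2 ratio was 1.02 over the 24 genes and -0.01 over all genes compared. The 33 genes together held 4853 CPM in macrophage-like cells and 2195 CPM in fibroblast-like cells. Their mean log2(CPM + 1) was 5.36 in macrophage-like cells and 4.68 in fibroblast-like cells.

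At the step that brings glucose into the cell and traps it, the classes differed in both transporter and hexokinase genes. Slc2a1, a widely expressed glucose transporter of the plasma membrane (chromosome 4, 119108711 to 119137983), reached 29.2 CPM (28.5 to 29.8) in macrophage-like cells, against 8.71 CPM (8.25 to 9.19) in fibroblast-like cells. Over the 9 hashtag populations it ranged in macrophage-like cells from 14.5 CPM through a median of 26.5 CPM up to 44.1 CPM, and in fibroblast-like cells from 3.62 CPM through 8.47 CPM up to 13.1 CPM. These ranges did not overlap, although 1 cell held 59.3% of the Slc2a1 reads in the lowest macrophage-like population. How many of all genes have ranges without overlap was not determined, so this trait has no background here or for the genes below.

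Hexokinases phosphorylate glucose, and 3 of them were listed. Hk3, an isozyme known from myeloid cells (chromosome 13, 55005985 to 55021385), reached 112 CPM (111 to 113) in macrophage-like cells and 2.85 CPM (2.59 to 3.13) in fibroblast-like cells, a 29.3-fold ratio of CPM plus 1. Its hashtag populations spanned 34.1 CPM, a median of 106 CPM and 132 CPM in macrophage-like cells, and 1.92 CPM, 2.93 CPM and 3.65 CPM in fibroblast-like cells. The ranges were far apart, and no other of the 24 genes compared had as large a ratio. Per 1000 reads of the macrophage marker genes, Hk3 had 6.10 reads in macrophage-like cells and 7.93 reads in fibroblast-like cells, whose macrophage markers summed to 360 CPM against 18307 CPM in macrophage-like cells.

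Hk2, the insulin-responsive and hypoxia-inducible isozyme (chromosome 6, 82725025 to 82774454), went the other way, with 16.0 CPM (15.6 to 16.5) in macrophage-like cells against 41.8 CPM (40.8 to 42.8) in fibroblast-like cells. It was lower in macrophage-like cells in 8 of the 9 hashtag populations, but the ranges overlapped: 9.42 CPM, a median of 21.2 CPM and 60.6 CPM in macrophage-like cells, and 24.9 CPM, 35.3 CPM and 83.7 CPM in fibroblast-like cells. With every cell thinned to 5000 reads its ratio was 0.51 and no longer past 2-fold. Hk1, the isozyme of most tissues, was at 22.0 CPM in macrophage-like cells and 24.6 CPM in fibroblast-like cells.

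The enzymes of the pathway's trunk were higher in macrophage-like cells almost throughout. Pkm, the pyruvate kinase of non-hepatic tissue (chromosome 9, 59656368 to 59679375), reached 811 CPM (808 to 814) in macrophage-like cells, against 164 CPM (162 to 166) in fibroblast-like cells. Its hashtag populations spanned 494 CPM, a median of 725 CPM and 1156 CPM in macrophage-like cells, and 130 CPM, 160 CPM and 218 CPM in fibroblast-like cells. Every macrophage-like population lay above every fibroblast-like one. The table holds no Pkm value below 7 reads except 0; filling each 0 with the largest hidden value brought the ratio of 4.91 to 3.78.

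Eno1, which makes phosphoenolpyruvate, followed with 369 CPM in macrophage-like cells and 94.9 CPM in fibroblast-like cells. Pgk1, which forms ATP in the pay-off phase, had 265 CPM in macrophage-like cells and 85.0 CPM in fibroblast-like cells. Gapdh, which oxidises glyceraldehyde phosphate, had 650 CPM in macrophage-like cells and 233 CPM in fibroblast-like cells. For these 3 genes, too, the populations of the 2 classes did not overlap.

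Pgam1, the phosphoglycerate mutase, had 341 CPM in macrophage-like cells and 149 CPM in fibroblast-like cells. Tpi1, the triose phosphate isomerase, had 231 CPM in macrophage-like cells and 114 CPM in fibroblast-like cells. Both were at least 2-fold higher, but by little: with the mean taken per cell, the ratios were 1.95 for Pgam1 and 1.76 for Tpi1. Tpi1 also dropped below 2-fold without hashtag population A0304, A0307, A0309 or A0310, at ratios of 1.98 to 1.99.

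Gpi1, the glucose phosphate isomerase, and Aldoa, the main aldolase, were just inside 2-fold. Gpi1 had 283 CPM in macrophage-like cells and 143 CPM in fibroblast-like cells, a ratio of 1.98 that was past 2-fold without hashtag population A0301 (2.02) and also without A0303. Aldoa had 693 CPM in macrophage-like cells and 368 CPM in fibroblast-like cells, a ratio of 1.88. Both were among the 16 of the 33 genes that were higher in macrophage-like cells in all 9 populations. The share of all genes with that pattern was not determined, so this count has no background.

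Pfkp, the platelet-type phosphofructokinase of the committed step, was at 67.6 CPM in macrophage-like cells and 86.4 CPM in fibroblast-like cells. Eno2, an enolase best known from neurons, was at 13.3 CPM in macrophage-like cells and 21.3 CPM in fibroblast-like cells, within 2-fold but lower in macrophage-like cells in all 9 populations. The remaining phosphofructokinases Pfkl and Pfkm and the minor aldolase Aldoc stayed under 20 CPM in both classes, between 0.209 and 11.9 CPM. Some reads of this group were placed on near-identical copies. Eno1b held 16.4% of the Eno1 and copy reads in macrophage-like cells and 17.2% in fibroblast-like cells, and Gapdh copies held 11.2% in macrophage-like cells and 10.9% in fibroblast-like cells, so the copies took like shares in both classes.

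All 3 regulators of flux were higher in macrophage-like cells. Pfkfb3 and Pfkfb4 make and remove the sugar bisphosphate that activates phosphofructokinase. Pfkfb4 had 37.5 CPM in macrophage-like cells and 11.4 CPM in fibroblast-like cells, and Pfkfb3 had 22.6 CPM in macrophage-like cells and 9.79 CPM in fibroblast-like cells. Pdk1, a kinase that shuts pyruvate dehydrogenase and thereby holds back the oxidation of pyruvate, had 24.6 CPM (24.0 to 25.2) in macrophage-like cells and 4.25 CPM (3.93 to 4.59) in fibroblast-like cells. The Pdk1 populations spanned 13.0 CPM, a median of 21.4 CPM and 34.5 CPM in macrophage-like cells, and 2.06 CPM, 5.09 CPM and 6.56 CPM in fibroblast-like cells, without overlap.

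The lactate dehydrogenases split between the classes. Ldha, whose product favours lactate formation (chromosome 7, 46841475 to 46855627), had 503 CPM (501 to 506) in macrophage-like cells and 247 CPM (245 to 250) in fibroblast-like cells. Its populations spanned 392.1 CPM, a median of 491 CPM and 596 CPM in macrophage-like cells, and 223 CPM, 245 CPM and 295 CPM in fibroblast-like cells. They did not overlap, but the ratio of 2.03 was close to the limit and stood at 1.78 with the mean per cell, 1.98 without hashtag population A0304 and 1.98 without A0307.

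Ldhb, the heart-type subunit that favours lactate use (chromosome 6, 142490249 to 142507957), was the reverse, with 6.62 CPM (6.33 to 6.92) in macrophage-like cells and 28.5 CPM (27.7 to 29.4) in fibroblast-like cells. Its populations spanned 2.07 CPM, a median of 9.66 CPM and 13.2 CPM in macrophage-like cells, and 13.2 CPM, 28.8 CPM and 41.0 CPM in fibroblast-like cells, so that the highest macrophage-like and the lowest fibroblast-like value were almost level. The lactate and pyruvate transporters Slc16a1 and Slc16a3 were under 20 CPM in both classes. Slc16a3, the exporter of strongly glycolytic cells, was at 8.61 CPM in macrophage-like cells and 0.496 CPM in fibroblast-like cells.

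The transcription factors themselves did not follow the glycolytic enzymes. Hif1a (chromosome 12, 73901375 to 73947530) had 58.4 CPM (57.5 to 59.3) in macrophage-like cells and 87.1 CPM (85.6 to 88.5) in fibroblast-like cells, within 2-fold. Arnt, its partner, was lower, with 19.9 CPM in macrophage-like cells and 43.7 CPM in fibroblast-like cells, and lower in all 9 populations; with cells thinned to 5000 reads its ratio was 0.50 and just inside 2-fold. Hif1a is regulated mostly as a protein, which these data do not measure.

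Of the hypoxia-induced genes, Hilpda and Ndrg1 stood on opposite sides. Hilpda, an inhibitor of lipolysis found on lipid droplets (chromosome 6, 29272488 to 29275446), had 167 CPM (165 to 168) in macrophage-like cells and 14.1 CPM (13.5 to 14.7) in fibroblast-like cells, an 11.1-fold ratio of CPM plus 1. Its populations spanned 74.9 CPM, a median of 144 CPM and 238 CPM in macrophage-like cells, and 7.92 CPM, 15.6 CPM and 23.8 CPM in fibroblast-like cells. The lowest macrophage-like population was still above the highest fibroblast-like one.

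Ndrg1, a stress and differentiation gene induced by hypoxia (chromosome 15, 66929318 to 66969640), had 31.0 CPM (30.3 to 31.6) in macrophage-like cells and 122 CPM (120 to 124) in fibroblast-like cells. Its populations spanned 7.51 CPM, a median of 30.8 CPM and 38.7 CPM in macrophage-like cells, and 82.6 CPM, 108 CPM and 177 CPM in fibroblast-like cells, without overlap. Bnip3, a receptor for the removal of mitochondria, did not reach 2-fold. It stood at 17.7 CPM in macrophage-like cells and 29.2 CPM in fibroblast-like cells. Ankrd37, Ddit4 and Egln3, an ankyrin repeat protein, an inhibitor of mTOR signalling and a prolyl hydroxylase that marks Hif1a for degradation, stayed under 20 CPM in both classes, between 0.298 and 14.6 CPM.

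Genes known to respond to tissue dissociation moved with this comparison. The 15 genes of that list held 8342 CPM in macrophage-like cells and 20594 CPM in fibroblast-like cells, and 11 of them were at least 2-fold lower in macrophage-like cells. Their part in the levels of the 33 genes was not tested. Fibroblast markers summed to 506 CPM in macrophage-like cells against 39246 CPM in fibroblast-like cells, and leaving out the subclusters that carry markers of another class left the counts at 13 higher and 4 lower.

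**Figure D1:**
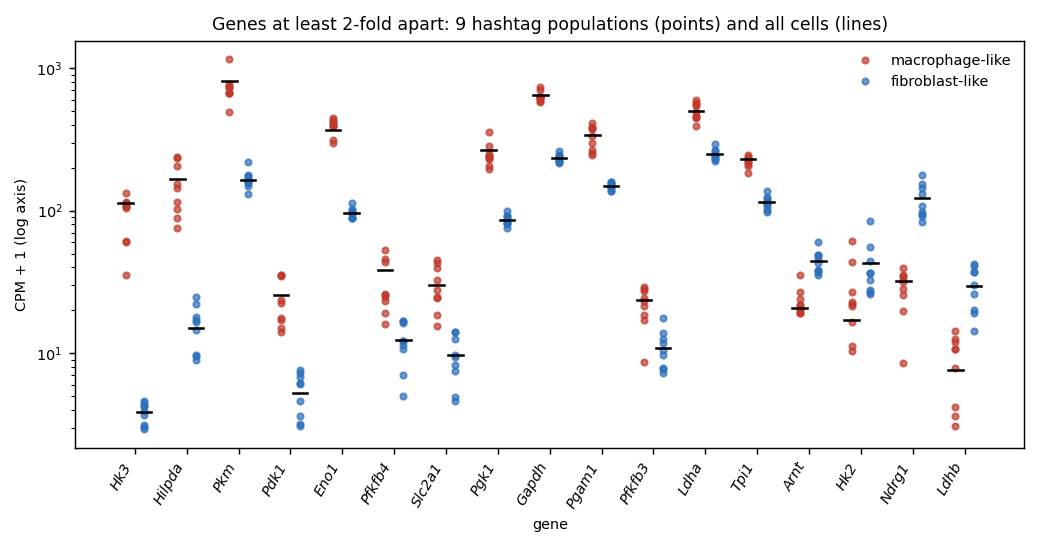
Summed level (CPM plus 1, log axis) of the 17 genes that differed at least 2-fold, with macrophage-like cells in red left of fibroblast-like cells in blue. Points are the 9 hashtag populations and black lines all cells of the class. Hk3, Hilpda and Pkm are separated in every population, while points of Hk2, Pfkfb3, Pfkfb4 and Arnt overlap.

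Neighbouring pathways are read against the same shares of all genes, 17.4% higher and 22.1% lower, and the median log2 ratio of -0.01. In the pentose phosphate pathway, which branches from glycolysis to make NADPH and ribose, 4 of 7 genes compared were at least 2-fold higher in macrophage-like cells and none lower. Taldo1 had 401 CPM in macrophage-like cells and 84.2 CPM in fibroblast-like cells. Pgd had 223 CPM, Tkt 342 CPM and G6pdx 99.5 CPM in macrophage-like cells, against 55.6 CPM, 87.3 CPM and 45.6 CPM in fibroblast-like cells. The citric acid cycle had 1 of 17 genes higher and none lower, and the respiratory chain 3 of 17 higher and none lower, so 16 and 14 of their genes lay within 2-fold. Smaller differences occurred there too. In all 9 populations, 13 of 17 genes of the respiratory chain and 8 of 17 of the citric acid cycle were higher in macrophage-like cells. These counts, too, have no share over all genes beside them. The median log2 ratios of these lists were 1.11 for the pentose phosphate pathway, 0.39 for the citric acid cycle and 0.71 for the respiratory chain.

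Among genes for the entry of pyruvate into mitochondria and the start of its oxidation there, 2 of 7 were lower in macrophage-like cells and none higher. Pdha1, the catalytic subunit of pyruvate dehydrogenase, had 54.7 CPM in macrophage-like cells and 123 CPM in fibroblast-like cells, and the kinase Pdk2 had 6.74 CPM in macrophage-like cells and 22.8 CPM in fibroblast-like cells. Of 3 other glycolysis genes compared, Pgm1, a phosphoglucomutase, was lower and none was higher. Among 7 oxygen-sensing genes, Epas1, the second hypoxia-inducible factor, was lower, with 9.28 CPM in macrophage-like cells and 74.7 CPM in fibroblast-like cells, and 6 were within 2-fold.

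Of 14 other hypoxia-induced genes, 2 were higher in macrophage-like cells, 6 were lower and 6 lay within 2-fold, against 17.4% higher and 22.1% lower among all genes compared. The higher ones were Plin2, a lipid droplet coat protein, with 2455 CPM in macrophage-like cells and 125 CPM in fibroblast-like cells, and the chemokine receptor Cxcr4, with 75.2 CPM in macrophage-like cells and 3.41 CPM in fibroblast-like cells. The lower ones included the collagen-modifying enzymes P4ha2, with 2.12 CPM in macrophage-like cells and 79.7 CPM in fibroblast-like cells, and Plod2, with 2.07 CPM in macrophage-like cells and 99.2 CPM in fibroblast-like cells. The median log2 ratio of this list was -0.21. Proliferation genes were higher in macrophage-like cells in 11 of 11 cases, with 2226 CPM in sum in macrophage-like cells and 424 CPM in fibroblast-like cells. Genes of lipid-associated macrophages were higher in 12 of 13 cases and antioxidant genes in 4 of 6, with none lower in either list. Several of these genes, like Pkm, lack low values above 0, and with zeros filled the counts were 8 of 11, 12 of 13 and 3 of 6; Mki67, Top2a, Cdk1 and Gclm then lay within 2-fold, and the ratio of Spp1 was 3.22 in place of 82.5.

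Across all 11 named classes, the mean log2(CPM + 1) of the 33 genes spanned 0.93. It was highest in epithelial-like cells (5.52, 74 cells), then macrophage-like (5.36), T cell-like (5.33) and mesothelial-like cells (5.31), and lowest in B cell-like (4.59) and fibroblast-like cells (4.68). Single genes varied more than this mean, which evens out its members by construction. Macrophage-like cells had the highest level of Hk3, Gpi1, Aldoa, Tpi1, Gapdh, Pgam1, Eno1, Pkm and Pfkfb4 among the 11 classes. T cell-like cells came second for Hk3, Gpi1 and Gapdh, and macrophage markers summed to 7283 CPM in them, against 360 CPM in fibroblast-like cells. Their Hk3 level of 34.1 CPM stood at 4.69 reads per 1000 macrophage marker reads, and the part of macrophage reads in the other values was not tested.

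NK cell-like cells stood out for both glucose transporters. These 166 cells had the highest Slc2a3, the high-affinity neuronal-type transporter, at 97.3 CPM, against 10.1 CPM in macrophage-like cells. They also had the highest Slc2a1, at 82.5 CPM, ahead of epithelial-like cells at 72.3 CPM. Gamma-delta T cell-like cells (122 cells) followed for Slc2a3 with 76.6 CPM and had the highest Pfkp, at 237 CPM, against a median of 86.4 CPM over the classes. Their Pgk1 (291 CPM) and Ldha (504 CPM) were at or above the macrophage-like levels.

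The 296 mesothelial-like cells, of the type that covers the surface of the fat, differed in lactate genes. Slc16a1 was at 265 CPM there, against 42.6 CPM in the next class, NK cell-like cells. Ldhb was at 139 CPM, above all classes but epithelial-like cells (991 CPM), while Ldha was lowest of all classes at 90.5 CPM. Mesothelial-like cells also had the highest Bnip3 (60.8 CPM) and Egln3 (45.3 CPM) of the named classes.

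Vascular cells stood out for Ndrg1 and Ddit4. Ndrg1 was at 689 CPM in lymphatic endothelial-like cells (65 cells) and 551 CPM in endothelial-like cells (1021 cells), against a median of 66.8 CPM over the classes. Ddit4 was at 233 CPM in endothelial-like cells, against 64.0 CPM in the next class, mural-like cells, and 3.82 CPM in macrophage-like cells. Endothelial-like cells also had the highest Pfkfb3, which is known to drive glycolysis in sprouting vessels, at 62.9 CPM. Their Hilpda was 26.4 CPM.

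Hilpda was highest in epithelial-like cells (294 CPM) and macrophage-like cells (167 CPM), with T cell-like cells at 164 CPM. Among clusters without a name, 132 cells led by Foxp3, Ctla4 and Il2ra, genes of regulatory T cells, had Hilpda at 342 CPM, Hif1a at 207 CPM and Egln3 at 146 CPM, above every named class for these 3 genes. That cluster's median depth was 14883.5 reads, fibroblast markers summed to 4560 CPM in it, and 1 cell held 22.0% of its Hilpda reads and 17.1% of its Egln3 reads. Levels in small classes can rest on few cells: 1 cell held 26.9% of the Ankrd37 reads behind the highest class value, 32.8 CPM in B cell-like cells, and 76.9% of the Pdk1 reads in lymphatic endothelial-like cells.

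**Figure D2:**
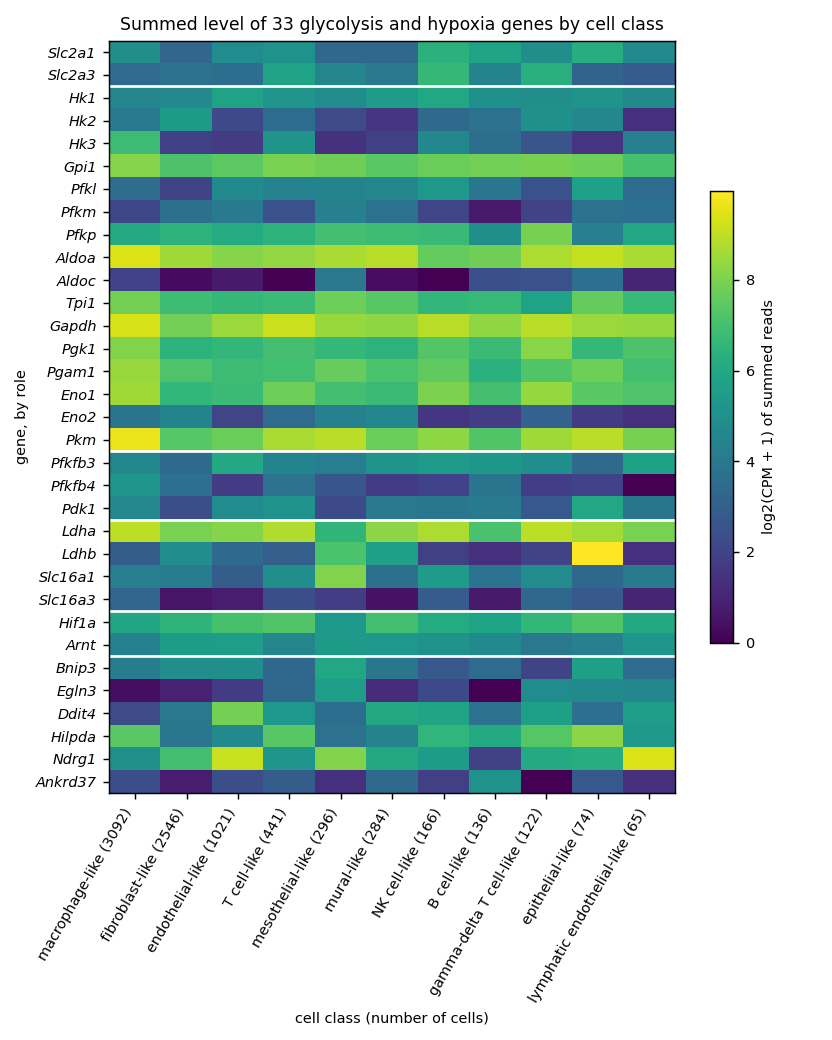
Summed level, log2(CPM + 1), of the 33 genes (rows, by role from glucose transport to hypoxia-induced genes) in the 11 named cell classes (columns, with cell numbers). Bright cells mark Ldhb in epithelial-like, Pkm in macrophage-like and Ndrg1 in endothelial-like and lymphatic endothelial-like cells.

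Isozyme shares differed between classes. Shares of an enzyme's reads are not corrected for transcript length, so they are compared between classes and not between isozymes. Hk3 held 74.6% (95% exact binomial interval 74.2 to 75.0) of hexokinase reads in macrophage-like cells, against 4.12% (3.75 to 4.51) in fibroblast-like cells. Hk2 held 10.7% in macrophage-like cells against 60.3% (59.4 to 61.3) in fibroblast-like cells. Hk1 held 14.7% in macrophage-like cells, 35.5% in fibroblast-like cells, 89.7% in endothelial-like cells, 90.4% in mural-like cells and 82.3% in mesothelial-like cells.

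Ldhb held 72.5% (71.6 to 73.3) of lactate dehydrogenase reads in epithelial-like cells and 60.6% (59.0 to 62.1) in mesothelial-like cells. The share was 14.2% in mural-like cells, 10.3% in fibroblast-like cells and 1.30% in macrophage-like cells. Eno2 held 3.48% of enolase reads in macrophage-like cells and 18.3% in fibroblast-like cells. Slc2a1 held 74.4% of the reads of the 2 glucose transporters in macrophage-like cells and 41.6% in fibroblast-like cells. Slc16a3 held 31.9% of the reads of the 2 monocarboxylate transporters in macrophage-like cells and 2.77% in fibroblast-like cells. The Pfkp share of phosphofructokinase reads was close in both classes, at 82.7% in macrophage-like cells and 85.2% in fibroblast-like cells, and 23.1% in epithelial-like cells.

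**Figure D3:**
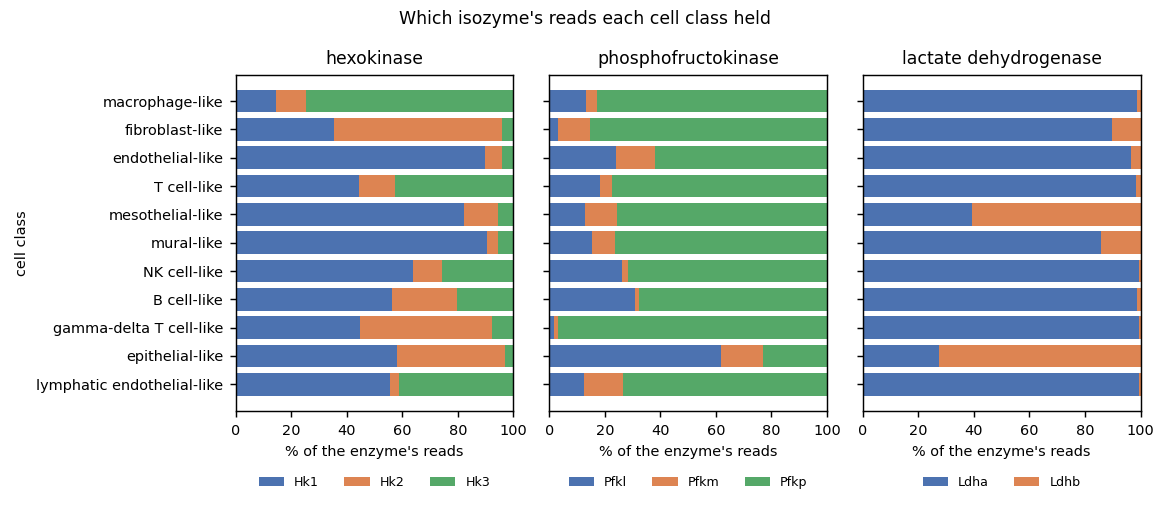
Share of reads (%) that each isozyme held among hexokinase, phosphofructokinase and lactate dehydrogenase reads in the 11 named cell classes. Hk3 fills 74.6% of the hexokinase bar of macrophage-like cells and Hk2 60.3% of that of fibroblast-like cells; Ldhb fills 72.5% of the lactate dehydrogenase bar in epithelial-like and 60.6% in mesothelial-like cells.

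Macrophage-like cells were clustered again without the 33 genes, and 11 subclusters had at least 50 cells. Subcluster 4 (495 cells), led by Cd226, Plbd1, Retnla and Il1b, exchanged hexokinases and carried more Hif1a. Of 23 genes compared, 3 were at least 2-fold higher than in the other macrophage-like cells (background 5.25%) and 3 lower (8.62%). Hif1a was at 150 CPM, Hk2 at 44.4 CPM and Slc16a3 at 23.7 CPM in subcluster 4, against 49.3 CPM, 13.2 CPM and 7.11 CPM elsewhere in the class. Hk3 was at 30.6 CPM, Pdk1 at 8.06 CPM and Pfkfb4 at 13.2 CPM in subcluster 4, against 120 CPM, 26.2 CPM and 39.9 CPM elsewhere in the class. Dissociation genes summed to 8362 CPM in subcluster 4 against 8340 CPM in the other cells. Of the 15 on that list, 2 were at least 2-fold higher in subcluster 4, and their part was not tested. The median depth of subcluster 4 was 45125 reads.

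Subcluster 2 (575 cells), led by Ms4a4a, Cd163, Hpgd and Selenop, had less of most of the pathway. Of 21 genes compared, 6 were at least 2-fold lower (background 4.03%) and 1 higher (3.98%). Slc2a1 was at 9.88 CPM, Pgk1 at 102 CPM, Hilpda at 81.7 CPM and Pgam1 at 169 CPM in subcluster 2, against 31.9 CPM, 288 CPM, 179 CPM and 365 CPM elsewhere in the class. Pkm and Ldha were lower as well, while Pfkfb3 was higher, at 48.8 CPM in subcluster 2 against 18.9 CPM elsewhere. Taking means per cell left Ldha at a ratio of 0.53, and filling zeros left Pkm at 0.51, both inside 2-fold. Dissociation genes stood at 15109 CPM in subcluster 2 against 7391 CPM in the others, and their part in these differences was not tested.

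Subcluster 7 (279 cells), led by Serpinb9b, Gsta3, Gclm and other genes of the antioxidant response, had a mean log2(CPM + 1) of the 33 genes of 5.43, close to subcluster 1 at 5.42. Only Aldoa reached 2-fold, and it was just short of it with zeros filled. It stood at 1241 CPM in subcluster 7 against 608 CPM elsewhere in the class, so 1 of 20 genes compared was higher (background 1.79%) and none lower (5.22%). Antioxidant genes summed to 13400 CPM in it against 2567 CPM in the others, and dissociation genes to 5312 CPM in it against 8808 CPM in the others. The small subcluster 11, also led by Serpinb9b, had antioxidant genes at 12011 CPM against 3939 CPM in the others.

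In the cycling subcluster 9 (310 cells, led by Nusap1, Bub1 and Mki67), 1 of 21 genes was lower (background 1.5%) and none higher (6.85%). That gene was Pfkfb3, at 9.48 CPM in subcluster 9 against 24.9 CPM in the others. Subcluster 12 (108 cells, led by Cxcl9, Gbp5 and other interferon-response genes) had Hilpda at 74.0 CPM, against 169 CPM elsewhere, as its 1 lower gene of 21 (background 3.65%), and none higher (5.26%). Dissociation genes were at 12460 CPM in subcluster 12 against 8232 CPM in the others, and their part was not tested. None of 21 genes reached 2-fold in either direction in subcluster 1 (425 cells, led by Mmp19; backgrounds 0.252% higher and 3.28% lower), subcluster 5 (361 cells, led by Mfge8 and Acp5; 0.43% and 3.25%) or subcluster 6 (285 cells, led by Sox4 and Cpe; 1.94% and 2.82%).

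In 3 small subclusters, depth or markers of another class moved with the values. Subcluster 8 (69 cells, median 30260 reads, median mitochondrial share 8.79% against 4.44% in the whole class) had 6 of 21 genes lower (background 13.7%), among them Slc2a1 at 5.49 CPM and Pkm at 276 CPM in it, against 29.3 CPM and 815 CPM elsewhere, and 1 higher (4.7%), Eno2. Subcluster 11 (88 cells, median 15141 reads) had 4 of 20 lower (background 22.7%), with Hif1a at 20.8 CPM in it against 58.7 CPM elsewhere, and none higher (1.97%). Subcluster 3 (52 cells) held fibroblast and endothelial markers at 11531 CPM in sum. In it, 3 of 22 genes were higher (background 12.3%) and 2 lower (2.26%). Among the higher ones was Ldhb, at 22.4 CPM in it against 6.26 CPM elsewhere. Dissociation genes were at 12350 CPM in subcluster 8 and 2828 CPM in subcluster 11, against 8342 CPM in the whole class. With means per cell, 3 of the 6 lower genes of subcluster 8, Slc2a1 and Pfkfb4 in subcluster 11, and Hk2 and Hk3 in subcluster 3 were within 2-fold. What part depth, mitochondrial reads, dissociation or those markers have in these values was not tested.

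Fibroblast-like subclusters differed in 3 genes of the list, Hk2, Ndrg1 and Ldhb. Subcluster 7 (349 cells), led by Cxcl10, Ifit1, Ccl2 and Ptx3, had Hk2 at 149 CPM against 23.8 CPM in the other fibroblast-like cells, a 6.07-fold ratio of CPM plus 1, and Hk2 was itself among its 10 leading genes although it took no part in the clustering. Ndrg1 was at 262 CPM in subcluster 7 against 98.7 CPM in the others, so 2 of 19 genes compared were higher (background 2.39%) and none lower (4.25%). Dissociation genes stood at 22518 CPM in it against 20271 CPM in the others.

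Hk2 was at least 2-fold lower in 4 other fibroblast-like subclusters. It was at 10.04 CPM in subcluster 3 (340 cells, led by Hmcn2) against 46.5 CPM elsewhere in the class, and at 15.02 CPM in subcluster 2 (236 cells, led by Chrdl1) against 44.0 CPM elsewhere. It was at 17.7 CPM in subcluster 8 against 46.6 CPM elsewhere, and at 20.7 CPM in subcluster 1 (225 cells, led by Piezo2) against 44.6 CPM elsewhere. In subclusters 1, 2 and 3 it was the only lower gene among 18, 21 and 19 compared (backgrounds 1.71%, 3.95% and 2.32%), and none was higher (0.824%, 3.71% and 0.415%). In each of these comparisons the other cells included subcluster 7. With it left out, a setting chosen after seeing the data, the ratio was 0.41 in subcluster 3 and still past 2-fold, but 0.63 in subcluster 2, 0.71 in subcluster 8 and 0.86 in subcluster 1, all within 2-fold. Dissociation genes went either way in them, at 15385 CPM in subcluster 1, 24607 CPM in subcluster 2 and 15177 CPM in subcluster 3, against 20594 CPM in the whole class.

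Ldhb was at 71.7 CPM in fibroblast-like subcluster 4 (342 cells, led by Clic6, Aspa and Trf) against 24.2 CPM in the others, the 1 higher gene of 18 (background 3.01%), with none lower (3.8%). It was at 5.99 CPM in subcluster 8 (385 cells, led by Mrgprg and Duox1) against 32.96 CPM elsewhere, so that subcluster had 2 of 18 lower (background 5.53%) and none higher (2.85%). Dissociation genes were at 31100 CPM in subcluster 4 against 19550 CPM in the others, and at 10016 CPM in subcluster 8 against 22694 CPM in the others; their part was not tested. In subcluster 5 (488 cells, led by Mdk and C4b) Ndrg1 was lower, at 49.0 CPM in it against 140 CPM elsewhere, as 1 of 19 (background 3.85%), and none was higher (2.92%); dissociation genes were at 25466 CPM in it against 19405 CPM in the others. Subcluster 6 (141 cells, led by Nr4a3, Ptgs2 and Il6) had none of 19 past 2-fold in either direction (backgrounds 0.903% higher and 2.37% lower).

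**Figure D4:**
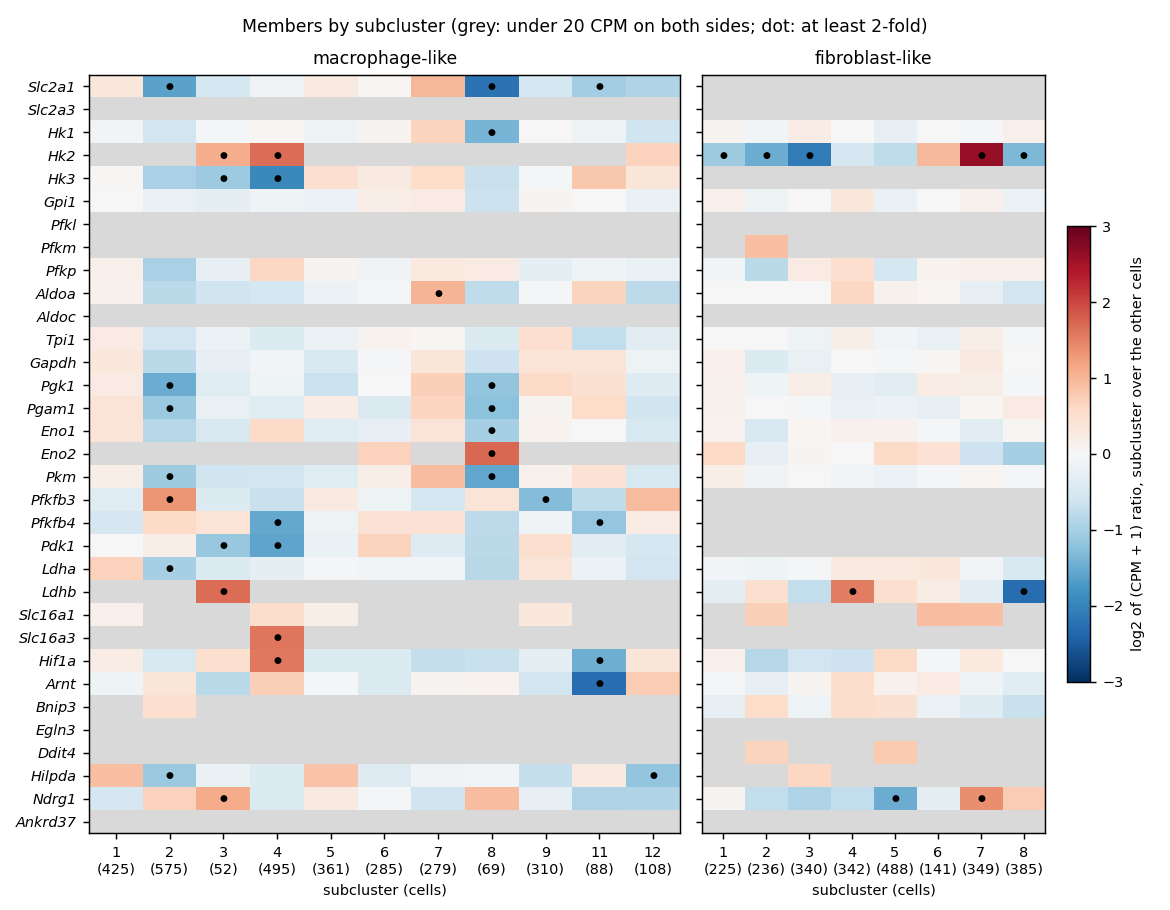
Log2 of the ratio of CPM plus 1, subcluster over the other cells of its class, for the 33 genes in 11 macrophage-like (left) and 8 fibroblast-like (right) subclusters with cell numbers. Dots mark at least 2-fold and grey fields genes under 20 CPM on both sides; subcluster 2 of the macrophage-like cells holds 6 blue dots, and subcluster 7 of the fibroblast-like cells holds the red Hk2 field.

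The hashtag populations, which no label ties to a diet, differed less in the mean over the 33 genes than in single genes, as a mean evens out its members. In macrophage-like cells the mean log2(CPM + 1) spanned 0.32, and in fibroblast-like cells 0.30. Hif1a ranged in macrophage-like cells from 43.2 CPM through a median of 74.0 CPM up to 141 CPM, and in fibroblast-like cells from 72.5 CPM through 84.6 CPM up to 117 CPM. Macrophage-like values thus spread on both sides of the fibroblast-like ones, and Hif1a was higher in macrophage-like cells in 4 of the 9 populations.

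The makeup of the macrophage-like cells moved with these values. Subcluster 4, the one with high Hif1a and Hk2 and low Hk3, made up 1.58% of the macrophage-like cells in the population where it was rarest and 62.0% where it was most common. Within subcluster 4 alone, 6 populations had at least 30 cells, and Hif1a there was 194 CPM in A0301, 204 CPM in A0302, 193 CPM in A0303, 114 CPM in A0304, 169 CPM in A0305 and 127 CPM in A0307. All 6 lay above the 49.3 CPM of macrophage-like cells outside the subcluster. Macrophage-like cells numbered 53 to 634 per population, so the smallest rest on few cells. Dissociation genes ranged between 6787 and 10874 CPM over the macrophage-like populations. Neither their part nor that of the makeup was tested.

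Aldoa and Pkm were highest in macrophage-like cells of A0310, at 1028 CPM and 1156 CPM, against medians of 616 CPM and 725 CPM over the populations. There, 40.6% of the macrophage-like cells belonged to subcluster 7, against 7.04% or less in every other population. Of Aldoa and Pkm, only Aldoa was at least 2-fold higher in that subcluster. In fibroblast-like cells Hk2 was highest in A0302, at 83.7 CPM, where subcluster 7 made up 28.2% of the cells, the largest share of any population. Hk2 was lowest in A0307, at 24.9 CPM, where the share was 5.79%, while the share was lower still in A0309 (5.22%) and A0310 (5.63%), with Hk2 at 26.9 CPM and 25.7 CPM. What part the makeup of either class has in these levels was not tested.

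**Figure D5:**
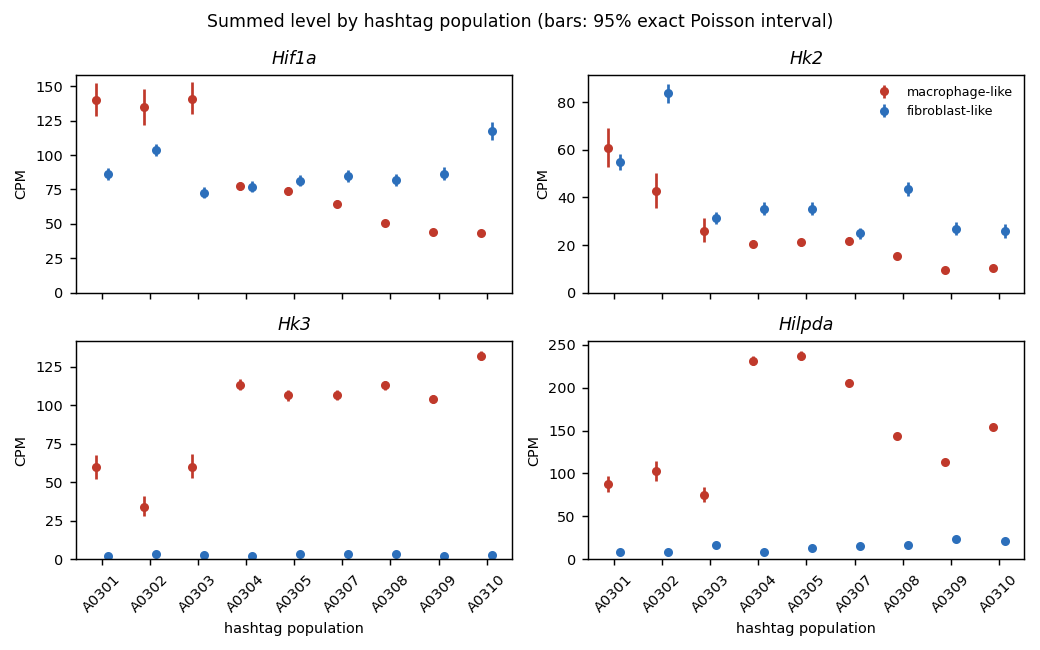
Summed level (CPM) of Hif1a, Hk2, Hk3 and Hilpda in each of the 9 hashtag populations, with macrophage-like cells in red and fibroblast-like cells in blue; bars are exact Poisson 95% intervals for counting error only. Hk3 and Hilpda are higher in macrophage-like cells throughout, while Hif1a of macrophage-like cells runs between 43.2 and 141 CPM.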

How the data were processed

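Per the labels' protocols, 1 pool of hashtag-stained cells gave a transcriptome library and a hashtag library. The authors deposited raw read counts for each gene in each cell, with no collapse to molecules recorded, and hashtag counts per barcode. According to the submitters' processing notes, sequence handling used cutadapt 2.10, Bowtie2 2.4.2 and R 3.6.3 on GRCm38; how cells were called and hashtags assigned is not given here. Columns named by a hashtag or a doublet call were used (12028), and 12 others were not. The 12028 cells held 617812192 reads.

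A minimum of 200 genes and a maximum of 25% mitochondrial reads removed 1253 cells; then 254 hashtag doublets and 236 Scrublet doublets (2.19% of cells, expected rate 0.05; 1 in both sets) were removed. Counts were scaled to 10000, log-transformed and clustered (Leiden, resolution 1, 15 neighbours, 30 principal components, 2000 variable genes without the members and pathway lists). A cluster was named when at least 3 markers and 50% of a class's list counted and no second class reached 60%, limits set after clusters were seen; low-depth or mixed clusters stayed unnamed, so class sizes depend on these rebuilt names. Summed reads per class gave CPM, and ratios used a pseudocount of 1, a 2-fold limit and 20 CPM as minimum. Gene positions came from GENCODE M21. Versions were scanpy 1.11.5, numpy 2.4.6, scipy 1.17.1, pandas 2.3.3, igraph 0.11.9, scikit-learn 1.9.0 and matplotlib 3.10.9 under Python 3.11.15; the ratio calls were checked on simulated data.

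The genes and all lists were chosen with earlier results of these data known. Members at 20 CPM or more in macrophage-like or fibroblast-like cells were named with both values, and at most 4 per direction in a subcluster and 4 per pathway list. Alternatives were the mean per cell, thinning to 5000 reads, filled zeros, at most 10% mitochondrial reads, hashtag doublet calls alone, Leiden resolutions of 0.5 and 2, a pseudocount of 10, no minimum, a stricter hashtag rule (2/3 of at least 10 tag counts), and each hashtag population left out.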

Additional observations from a re-analysis of the deposited data

How the results depend on the processing

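Nothing was replicated, and no hashtag population could be assigned to a diet. No paired analysis was possible because the 2 labelled libraries are the transcriptome and the hashtags of the same pool; both classes occur in each hashtag population, but these unassigned samples were described and not tested. The 13 higher members were 10 with the mean per cell, with thinning to 5000 reads and with a pseudocount of 10, and 11 to 14 with 1 hashtag population left out; the 4 lower members numbered 4 with 1 population left out, 3 with thinning and 2 with a pseudocount of 10, which shrinks ratios of low genes by its construction. The macrophage-like minus fibroblast-like difference in mean log2(CPM + 1), 0.68, was 0.63 with the mean per cell, 0.64 with thinning, 0.49 with log2(CPM + 10), and 0.65 to 0.71 with 1 population left out. The span over classes, 0.93, was 1.09 with the mean per cell, 1.34 with thinning, 0.68 with log2(CPM + 10), and 0.85 to 1.15 with 1 population left out. The span over macrophage-like subclusters, 0.70, was 0.48 with log2(CPM + 10). The span over hashtag populations was 0.59 with thinning in macrophage-like cells, against 0.32, and 0.16 with log2(CPM + 10) in fibroblast-like cells, against 0.30. A larger constant narrows spans by its construction; the cause of the other shifts was not tested. Another 81 values of these summaries under the alternatives stayed within counting error or 1.5 times. Of the log2 ratios of single genes, with settings added later included, 216 stayed within counting error and 121 moved beyond it. No called member changed direction under the alternatives run. Further settings were chosen after seeing the data: joining unnamed clusters to their closest class gave 11 higher and 4 lower, and dropping subclusters with foreign markers or scaling to a median log2 ratio of 0 gave 13 and 4. Within macrophage-like subcluster 4 alone, also added later, the span over populations was 0.37, and leaving subcluster 7 out of the other fibroblast-like cells ended 3 of the 7 calls in the subclusters besides it. That last setting was run only for genes already called, so it could end calls but not add any. Depth limits genes under 20 CPM, and genes without low values, such as Pkm, have ratios that may be too large.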

Other observations

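In macrophage-like cells, Hif1a, Hilpda, Hk3 and Hk2 varied over the hashtag populations, which carry no diet label and no grouping. These genes are examples, and how many of all genes vary as much was not determined. A0301, A0302 and A0303 held only 59, 53 and 71 macrophage-like cells. Full lists follow the hashtag numbers, A0301 to A0305 and then A0307 to A0310, an order that is no grouping. Hif1a was 140, 135, 141, 77.6, 74.0, 64.6, 50.9, 44.3 and 43.2 CPM. In the same order, Hilpda was 87.2, 102, 74.9, 232, 238, 206, 144, 114 and 154 CPM. Hk3 was 59.6, 34.1 and 60.2 CPM in A0301, A0302 and A0303, and between 104 and 132 CPM in the other 6 populations. Hk2 was 60.6 CPM in A0301, 42.5 CPM in A0302 and between 9.42 and 25.8 CPM in the other 7. By hashtag number again, subcluster 4 made up 57.6%, 56.6%, 62.0%, 31.8%, 29.3%, 25.9%, 2.25%, 1.58% and 3.58% of the macrophage-like cells. Its part in these levels was not tested.

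Clusters 9 and 21, which stayed without a name, carried macrophage markers and differed in these genes. The cluster led by Cd209f, Lyve1 and Cbr2 (218 cells, median 22243.5 reads) had a mean log2(CPM + 1) over the 33 genes of 4.73, with Pkm at 205 CPM and Hilpda at 24.9 CPM. The cluster led by Ccr2 (777 cells, median 12487 reads) had 5.36, with Pkm at 534 CPM and Hilpda at 84.8 CPM. Dissociation genes stood at 19049 CPM in the Lyve1 cluster and 9420 CPM in the Ccr2 cluster. The median mitochondrial share was 8.60% in the Lyve1 cluster and 8.50% in the Ccr2 cluster, against 4.44% in macrophage-like cells, and its part in these levels was not tested. Neither is part of the macrophage-like values above.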
